A study of Mus musculus with 12 samples.

Results

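Cytosolic ribosomal protein genes encode the proteins that, with ribosomal RNA, form the large (60S) and small (40S) subunits of the ribosome. Their mRNAs mostly start with a run of pyrimidines, the 5′ terminal oligopyrimidine (TOP) tract, which links their translation to mTORC1 signalling, and their subunits are needed in near equal amounts. Mammalian genomes also hold many processed pseudogenes copied from these mRNAs, so a short read from such an mRNA can fit several places. The genes were chosen by symbol: every protein-coding row named Rpl or Rps with a number, or Rplp0, Rplp1, Rplp2 or Rpsa, without pseudogenes and S6 kinases. This took 82 of 27412 rows of the table, of which 24630 have a symbol. Of these 82, 41 encode large-subunit proteins, 31 small-subunit proteins and 3 proteins of the ribosomal stalk, which makes 75 canonical genes. Another 6 are paralogs (Rpl3l, Rpl22l1, Rpl36al, Rpl7l1, Rps27l and Rps27rt), and Rps19bp1, which the naming rule also takes, encodes a protein that binds RPS19 and is no ribosomal protein.

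RNA came from a thin outer slice of kidney cortex of untreated male C57BL/6 mice, whose age the sources used here do not give. The 3 WT animals are wild type. The 3 HIF2aM3 animals (17-51, 17-53 and 17-56) carry a γ-HIF2αM3 transgene, which is driven by a promoter of γ-glutamyl transferase, an enzyme of the proximal tubule. Epas1 is the gene of HIF2α, which switches on target genes when oxygen is low, and the question is how RNA of the cortex differs in mice with the transgene. All transgenic animals share the prefix 17, and the sources used here do not say whether they come from 1 line, so line or insertion site cannot be told apart from the transgene. Both kidneys of each animal were sequenced as separate libraries (12 in all), and the animal was taken as the replicate. Library totals ran from 24032148 to 43499743 reads, apart from kidney 2 of 17-51 with 4161829. Epas1 itself was at 197, 238 and 177 CPM (counts scaled to a common library total) in WT 1, 2 and 3 and at 278, 276 and 248 CPM in 17-51, 17-53 and 17-56. The genotypes did not overlap, with a log2 fold change of 0.39 ± 0.11 (SE) that missed the threshold of 0.05 (edgeR adjusted p = 0.088). In bulk tissue, fewer cells of a type and less RNA per cell cannot be told apart. Of the proximal tubule markers, 1 of 10 passed the test and was lower, where 3.75% of all genes passed in either direction, their summed level being 28220 to 35230 CPM in WT and 30080 to 33980 CPM in HIF2aM3 animals. Collecting duct markers were lower in 4 of 6, with 525.8 to 578.9 against 316 to 390 CPM in sum. Endothelial markers were higher in 3 of 7, with 236 to 324 against 387 to 398 CPM in sum. Of the loop and distal tubule markers 0 of 5 passed and all 5 were negative, with 3597 to 4559 against 3187 to 3468 CPM in sum. Leukocyte markers were higher in 1 of 9, with 8 positive and sums of 196 to 437 against 348 to 426 CPM. Further marker lists are not given in this paragraph. No gene of the lists given here was at 0, and their part in the values of the ribosomal protein genes was not tested.

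The sequences around the first transcribed base are shown for 7 genes named below, because the TOP tract lies there. They are RefSeq sequences of build GRCm38.p6, from 40 bases before the first transcribed base to 20 bases from it on, on the transcribed strand, with runs of at least 8 C or T in capitals.
Rpl4: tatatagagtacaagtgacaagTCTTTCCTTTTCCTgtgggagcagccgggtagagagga
Rpl5: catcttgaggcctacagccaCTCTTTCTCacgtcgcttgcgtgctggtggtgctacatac
Rpl39: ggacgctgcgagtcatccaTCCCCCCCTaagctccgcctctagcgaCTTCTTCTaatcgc
Rpl22l1: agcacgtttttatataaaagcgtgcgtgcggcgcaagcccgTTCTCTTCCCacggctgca
Rps4x: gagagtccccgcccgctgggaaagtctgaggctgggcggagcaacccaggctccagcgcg
Rpsa: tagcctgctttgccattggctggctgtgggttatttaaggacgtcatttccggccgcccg
Rpl3l: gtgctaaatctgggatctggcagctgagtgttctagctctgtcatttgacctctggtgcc
These windows lie at chr9:64173347-64173406 (plus strand) for Rpl4, chr5:107900488-107900547 (plus) for Rpl5, chrX:37085203-37085262 (minus) for Rpl39, chr3:28805468-28805527 (plus) for Rpl22l1, chrX:102189372-102189431 (minus) for Rps4x, chr9:120127726-120127785 (plus) for Rpsa and chr17:24727786-24727845 (plus, the upstream of 2 RefSeq starts) for Rpl3l. A run was found in the first 4 and not in the last 3, nor in the window of Rps3, which is not shown. Its absence says only that these letters are not in these windows. The runs of Rpl4 and Rpl5 and the first run of Rpl39 lie wholly before the annotated first transcribed base. An annotated start can be off by some bases, so a run in the window is not by itself a TOP tract. RefSeq gave 74 promoter entries for 62 of the 82 genes. Of these entries, 38 (51.4%) held such a run in the window, against 24.2% of all 32851 entries. Over the 300 bases of each entry (250 before the start), 49 of 74 (66.2%) held ACGTG or GCGTG, the core letters of the hypoxia response element, on either strand, against 43.8% of all entries. CCGGAAG, the core letters bound by ETS factors, was in 25 of 74 (33.8%) against 8.86%. These matches describe letters and not binding sites.

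No ribosomal protein gene passed the test between genotypes. All 82 were tested with edgeR's quasi-likelihood test, and 0 were called higher and 0 lower at an adjusted p of 0.05, where 3.75% of all 19564 genes tested were called. At an unadjusted p under 0.05 the count was 10 of 82 (8 higher, 2 lower), against 24.9% of all genes, and DESeq2 called 3 of 82 where it called 10.6% of all genes. Their median log2 fold change was 0.025, beside 0.0049 for all genes, with 50 positive and 32 negative. This direction rested on single animals: without WT 3 the median was -0.013 with 38 positive, without 17-51 it was -0.0013 with 40 positive, and without WT 2 it was 0.056 with 61 positive. The quartiles were -0.038 and 0.081, against -0.14 and 0.16 for all genes. The intervals bound what the test could miss: for 70 of 82 genes the 95% interval lay within a fold of 1.25 in either direction, and for 79 within a fold of 1.5. The 75 canonical genes ran from -0.20 to 0.21.

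**Figure D1:**
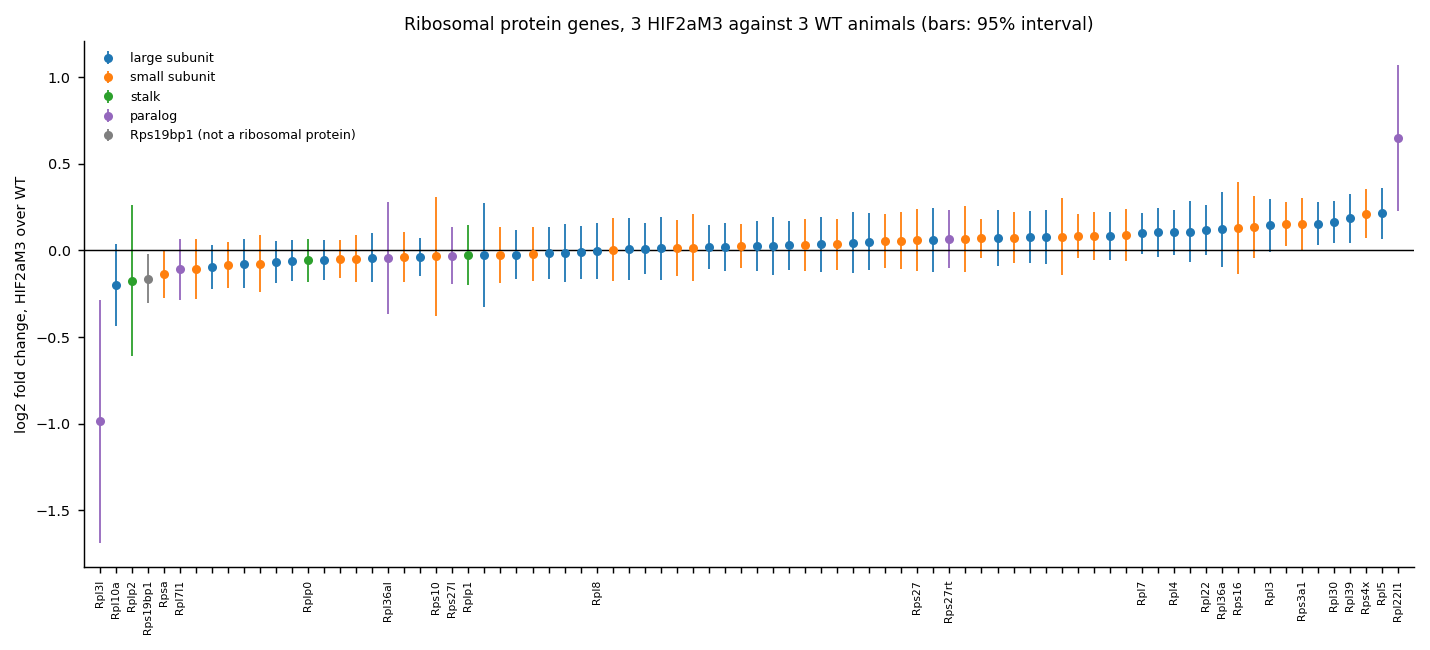
Log2 fold change of the 82 genes (y axis) ordered from lowest to highest (x axis), 3 HIF2aM3 against 3 WT animals, with 95% intervals as bars and colours for the class of protein (names mark the 26 genes of the naming rule). Rpl3l (-0.99) and Rpl22l1 (0.65), both paralogs, lie at the ends, and the canonical genes lie between -0.20 and 0.21.

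By subunit, 27 of 41 large-subunit genes were positive with a median of 0.026, and 21 of 31 small-subunit genes with a median of 0.035. The 3 stalk genes, whose proteins recruit the factors of elongation, were all slightly negative. Rplp0, the base of the stalk, was at -0.06 (95% interval -0.18 to 0.07). Rplp1 was at -0.03 (-0.20 to 0.14) and Rplp2 at -0.17 (-0.61 to 0.26). The differences between these classes were not tested.

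The positive end held several genes whose animals did not overlap between genotypes, although none passed. Rpl5, which with RPL11 and 5S RNA forms a particle that also binds the p53 regulator MDM2, was at 105, 110 and 96.3 CPM in WT 1, 2 and 3 and at 120, 124 and 117 CPM in 17-51, 17-53 and 17-56. Every transgenic animal lay above every WT animal, by a log2 fold change of 0.21 ± 0.063 (SE, edgeR adjusted p = 0.095). Rps4x, the X-linked gene of a small-subunit protein, was at 70.7, 77.7 and 68.7 CPM in WT and at 84.6, 80.8 and 86.1 CPM in HIF2aM3 animals. Its log2 fold change was 0.21 ± 0.061 (edgeR adjusted p = 0.093), and it passed without WT 2 (edgeR adjusted p = 0.037). Rpl39, another X-linked gene, which encodes a very small protein at the exit tunnel, was at 14.6, 15.1 and 15.7 CPM in WT and at 17.8, 16.9 and 16.9 CPM in HIF2aM3 animals. The log2 fold change was 0.19 ± 0.061 (edgeR adjusted p = 0.12). Rpl30, whose protein lies in the large subunit, was at 39.0, 41.1 and 38.3 CPM in WT and 45.5, 44.3 and 43.0 CPM in HIF2aM3 animals. Its log2 fold change was 0.17 ± 0.052 (edgeR adjusted p = 0.11). DESeq2 called Rpl5 (adjusted p = 0.031) and Rps4x (adjusted p = 0.041). The authors' deposited table gave 9 of the 82 genes a q-value under 0.05, 7 of them higher and 2 lower, where it gave 12.6% of all rows one.

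**Figure D2:**
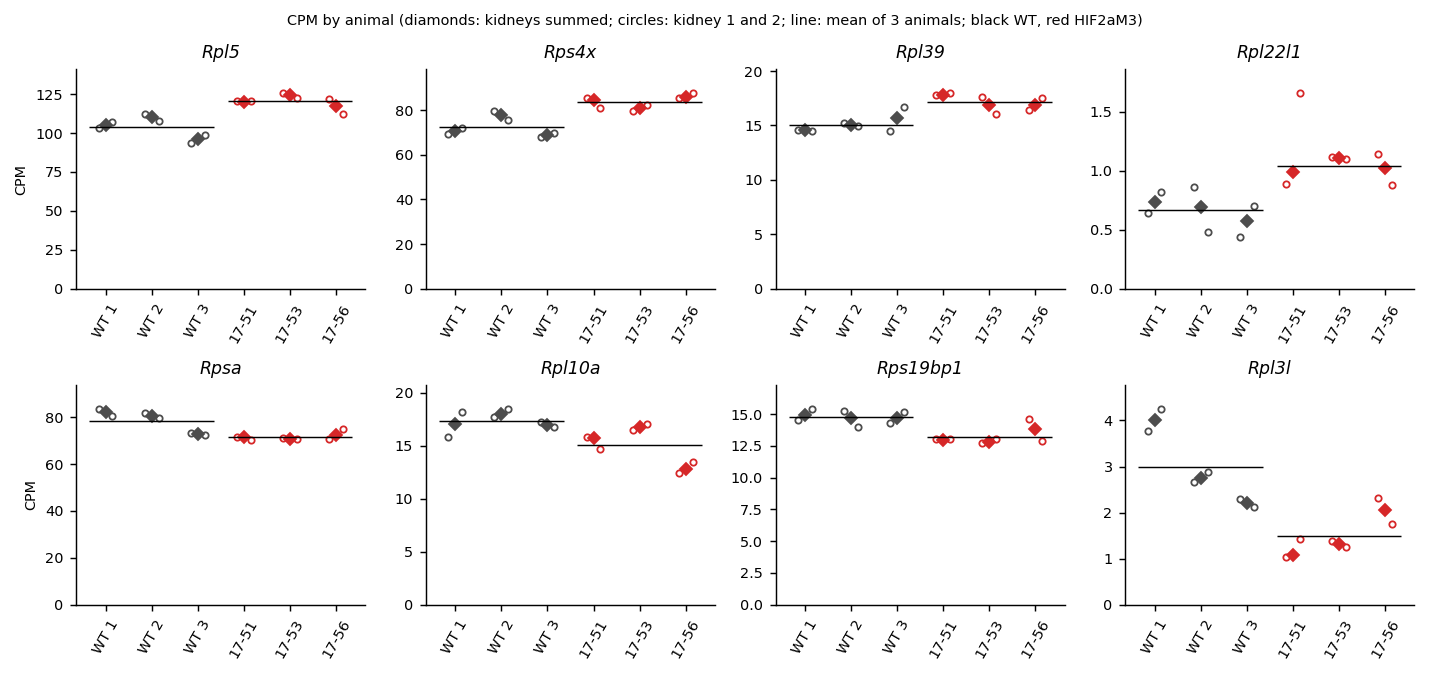
CPM (y axis, from 0) of 8 genes in the 6 animals (x axis), with diamonds for both kidneys summed, circles for each kidney, a line for the mean of 3 animals, WT in black and HIF2aM3 in red. The transgenic diamonds lie above all WT diamonds for Rpl5, Rps4x, Rpl39 and Rpl22l1, and below them for the other 4 genes.

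At the negative end, Rpsa encodes a small-subunit protein that is also the precursor of a laminin receptor. It was at 82.1, 80.7 and 72.7 CPM in WT and at 71.4, 70.9 and 72.3 CPM in HIF2aM3 animals. The gap between WT 3 and 17-56 was narrow, and the log2 fold change was -0.14 (95% interval -0.27 to 0.0017, edgeR adjusted p = 0.21). Rpl10a, a large-subunit gene, was at 17.0, 18.0 and 17.0 CPM in WT and at 15.7, 16.8 and 12.8 CPM in HIF2aM3 animals. Its lowest value was that of 17-56, and its log2 fold change was -0.20 (-0.43 to 0.037, edgeR adjusted p = 0.27). Rps19bp1 was at 14.96, 14.7 and 14.7 CPM in WT and at 12.98, 12.8 and 13.8 CPM in the transgenic animals. Its log2 fold change was -0.16 ± 0.061 (edgeR adjusted p = 0.16), with every transgenic animal below every WT animal. In all, 11 of 82 genes (13.4%) had every transgenic animal above every WT animal, against 15.5% of all genes tested, and 6 of 82 (7.32%) had every one below, against 16.5%.

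The paralogs spread more widely than the canonical genes, from -0.99 to 0.65. Rpl22l1 encodes a protein that can take the place of RPL22 in the ribosome. It was at 0.732, 0.690 and 0.574 CPM in WT and at 0.985, 1.11 and 1.02 CPM in HIF2aM3 animals, from 305 reads in all libraries. The log2 fold change was 0.65 ± 0.18 (SE, edgeR adjusted p = 0.087), without overlap between genotypes. For Rpl22 itself the means were 72.8 ± 4.91 CPM in WT and 78.9 ± 2.06 CPM in the transgenic animals (SD, n = 3 each), with overlap. Rpl22l1 made up 0.833% to 1.01% of the reads of the pair in WT and 1.24% to 1.34% in HIF2aM3 animals. Rpl3l, a paralog of Rpl3 known from skeletal and heart muscle, was at 4.02, 2.74 and 2.20 CPM in WT and at 1.08, 1.32 and 2.06 CPM in HIF2aM3 animals. WT 1 was highest, the lowest WT animal lay close to 17-56, and the log2 fold change was -0.99 ± 0.30 (edgeR adjusted p = 0.10), which DESeq2 called (adjusted p = 0.020). Rpl3l held 3.33% to 5.51% of the pair's reads in WT and 1.39% to 2.66% in HIF2aM3 animals. Of 4 skeletal and heart muscle markers tested, 1 passed and was higher in HIF2aM3 animals, where 3.75% of all genes passed in either direction. The other 3 were negative without passing, and the median log2 fold change of the 4 was -0.21. The 6 on the list were at 4.25 to 4.53 CPM in sum in WT and 4.34 to 5.22 CPM in HIF2aM3 animals.

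The other 4 paralogs had intervals that include 0. Rpl7l1, whose protein acts in ribosome assembly, was at 47.1 ± 3.03 CPM in WT and 43.6 ± 3.42 CPM in HIF2aM3 animals, or -0.11 (-0.28 to 0.065), while Rpl7 was at 79.5 ± 3.26 and 85.1 ± 0.288 CPM. Rps27l, a gene known to respond to p53, was at 42.0 ± 3.87 and 41.2 ± 0.499 CPM and held 74.9% to 80.6% of the reads of its pair with Rps27 in WT and 76.8% to 77.2% in HIF2aM3 animals. Rpl36al was at 1.66 ± 0.145 and 1.62 ± 0.0465 CPM, beside Rpl36a at 10.2 ± 1.10 and 11.1 ± 0.465 CPM. Rps27rt and Rps27 have the same coding sequence in all 252 positions, so their reads cannot be told apart there. They were at 19.8 ± 1.51 and 11.8 ± 0.928 CPM in WT and at 20.7 ± 0.809 and 12.3 ± 0.255 CPM in HIF2aM3 animals. The share of Rps27l given above leaves out the reads counted under Rps27rt. It therefore depends on how the counting split reads between Rps27 and Rps27rt.

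Animals of 1 genotype differed in these genes as a group. Measured as log2(CPM) minus each gene's mean over 6 animals, the median gene was at -0.016, 0.064 and -0.091 in WT 1, 2 and 3 and at 0.047, 0.027 and -0.029 in 17-51, 17-53 and 17-56. WT 2 was the highest animal for 32 genes and WT 3 the lowest for 46. Of the 82 genes, 75 were higher in WT 2 than in WT 3, with a median difference of 0.15, while 50.7% of all genes tested were, with a median of 0.0035. By library (kidney 1, then kidney 2), the medians were 0.065 and 0.071 in WT 2, -0.083 and -0.086 in WT 3, and -0.056 and -0.0082 in WT 1. They were 0.057 and 0.023 in 17-51, 0.052 and 0.010 in 17-53, and -0.029 and -0.0072 in 17-56. Both kidneys of each animal had the same sign, but outside WT 2 and WT 3 their gap was as large as some gaps between animals. Summed, the 82 genes held 0.341%, 0.372% and 0.317% of all reads in WT 1, 2 and 3 and 0.360%, 0.360% and 0.348% in 17-51, 17-53 and 17-56. The WT animals lay both above and below the transgenic ones, and the difference of 0.0126 percentage points was within their spread (exact permutation test, two-sided, p = 0.60, where 3 against 3 can give no less than 0.10). This test was added after the data were seen. Between kidneys, in the fit that took each animal as a block, 0 of 82 genes passed in edgeR, where 0.0936% of all genes did, 1 had an unadjusted p under 0.05, and DESeq2 called 0. Whether the kidney difference depends on genotype was tested as well, with 0 of 82 passing and 3 at an unadjusted p under 0.05. For both kidney fits the share of all genes at an unadjusted p under 0.05 is not given here, so nothing is read from those counts.

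**Figure D3:**
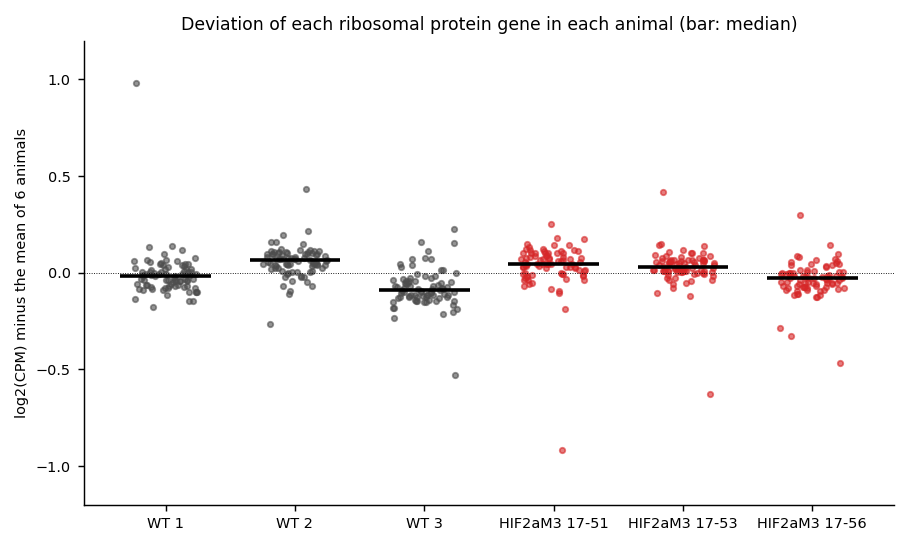
Deviation of each of the 82 genes from its mean over 6 animals (y axis, log2 CPM) in each animal (x axis), 1 point per gene, with the median as a bar. WT 2 (0.064) and WT 3 (-0.091) lie farther apart than the medians of the 3 HIF2aM3 animals, which run from -0.029 to 0.047.

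Levels of the genes differed far more among themselves than between genotypes. Per kb of coding sequence, WT means of the canonical genes ran over a ratio of 54.8 from highest to lowest, with a median of 73.2 CPM per kb and quartiles of 47.8 and 93.7. Rpl8 was highest at 347 ± 26.6 CPM per kb (SD, n = 3), and Rps3 at 225 ± 15.1 and Rpl22 at 190 ± 12.8 were also high. Rpl4 at 153 ± 7.01 and Rps15 at 153 ± 9.65 did not differ beyond their spread. Rps16 at 6.64 ± 0.381, Rplp2 at 6.33 ± 0.642 and Rps10 at 8.12 ± 0.902 were the lowest canonical genes, and Rpl22l1 (1.82 ± 0.224) and Rpl3l (2.45 ± 0.763) the lowest of all. Rps3 and Rps15 were named after their values were seen. The log2 levels of the 75 canonical genes in WT and HIF2aM3 animals had a Pearson r of 0.997, over genes that share all libraries. The deposited RPKM ordered the genes in part otherwise. Its 5 highest means over 12 libraries were Rpl8 (279), Rpl4 (127), Rps3a1 (74.8), Rplp1 (73.4) and Rps27rt (53.7), and its 5 lowest Rplp2 (0.554), Rpl36al (0.587), Rps10 (0.729), Rpl3l (0.863) and Rps16 (1.53). For 48.7% of all genes the length behind the RPKM matched the summed length of all annotated transcripts within 1%, up to a common factor. Among the 82 ribosomal protein genes it did so for 31. Over the canonical genes RPKM fell with the number of annotated transcripts (Spearman's rho -0.49, n = 75), and level per coding kb did so less (-0.12).

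Part of this spread went with how unique the sequence is. Each coding sequence was split into all its windows of 50 bases. A window was called unique if no annotated gene elsewhere held it on either strand, leaving aside genes that overlap the same locus. Of the 82 genes, 28 had no unique window and 15 had at least 50% unique windows. Among canonical genes the median WT level was 153 CPM per kb for the 11 with at least 50% unique windows, 73.0 for the 37 between and 61.8 for the 27 with none, and Spearman's rho over the 75 was 0.32. Rps3 (91.9%) and Rpl8 (91.3%) were among the most unique, while Rps16 had 0%. The sources used here do not say how the counting treated a read that fits several places, so levels of different genes are uncertain where copies exist. The median log2 fold changes of the 3 groups were -0.0039, 0.032 and 0.054 in the same order.

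**Figure D4:**
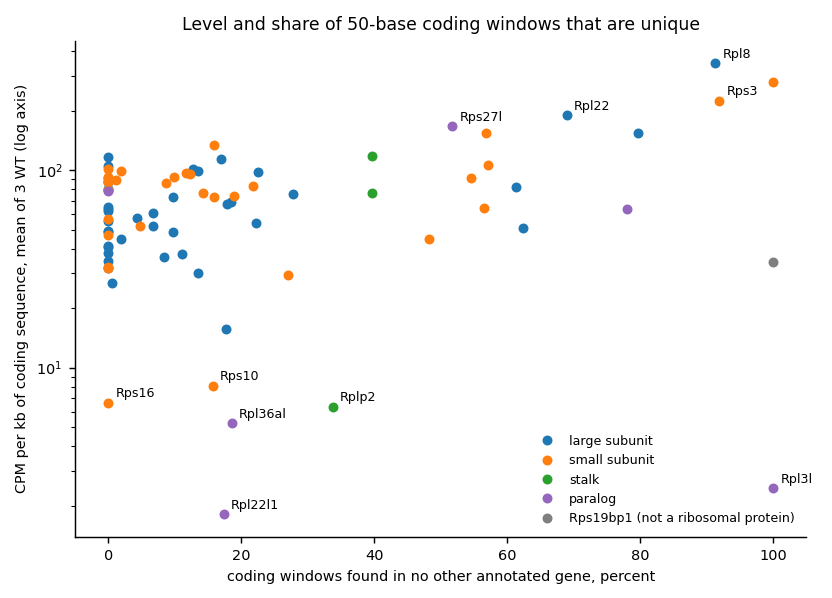
WT level in CPM per kb of coding sequence (y axis, log axis, mean of 3 animals) against the percent of unique 50-base coding windows (x axis), 1 point per gene. Unique windows are found in no other annotated gene, leaving aside genes that overlap the same locus. Rpl8 and Rps3 are high and over 91% unique, while Rps16, Rps10, Rpl36al and Rpl22l1 are low and under 20% unique. Rpl3l is low at 100%.

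Reads in the table were also spread over pseudogene rows. Of 1133 annotated genes elsewhere that share a 50-base window with a ribosomal protein gene, 594 pseudogenes are rows of the table. They held 178% to 184% as many reads as the 82 genes in the 12 libraries. For the 3 genes below, a stretch of 60 coding bases is shown beside the same stretch of the pseudogene row with most reads, with differing bases in capitals, because these copies bear on the counts. The sequences are GENCODE M21 transcripts, counted from the start codon of the gene.
Rpl22l1 (79 to 138): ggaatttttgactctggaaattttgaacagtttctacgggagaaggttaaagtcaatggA
Gm15421: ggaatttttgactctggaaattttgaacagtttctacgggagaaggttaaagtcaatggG
Rpsa (1 to 60): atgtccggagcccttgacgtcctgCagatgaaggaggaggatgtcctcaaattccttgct
Rpsa-ps10: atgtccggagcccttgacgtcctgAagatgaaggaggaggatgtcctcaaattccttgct
Rpl5 (1 to 60): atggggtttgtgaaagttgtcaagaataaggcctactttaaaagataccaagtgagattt
Gm15500: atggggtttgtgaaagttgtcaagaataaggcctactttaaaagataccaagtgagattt
Gm15500 matched Rpl5 over all 891 coding bases, Rpsa-ps10 differed from Rpsa at 6 of 885 and Gm15421 from Rpl22l1 at 1 of the 347 bases that align without a gap. Gm15421 held 2050 reads, against 305 for Rpl22l1.

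Most genes and their pseudogene rows had log2 fold changes of the same sign. Gm15421 was at 4.10, 5.28 and 4.67 CPM in WT 1, 2 and 3 and at 6.95, 6.998 and 6.38 CPM in 17-51, 17-53 and 17-56, higher in HIF2aM3 animals by a log2 fold change of 0.53 ± 0.11 (SE, edgeR adjusted p = 0.048). It was the only one of the 548 pseudogene rows tested that passed, where 3.75% of all genes tested passed in either direction. It is named because it passed. Leaving out any animal but WT 2 ended its call (edgeR adjusted p from 0.087 to 0.16), and over 23 settings its adjusted p ran from 0.0011 to 0.16. When each gene was summed with the pseudogene rows that share its windows, 1 of 81 sums passed, in a fit that called 732 in all. The sum that passed was that of Rpl22l1, with a log2 fold change of 0.54 ± 0.10 (edgeR adjusted p = 0.037). Rpl39 was next at 0.18 ± 0.051 (edgeR adjusted p = 0.084). The median over the sums was 0.029. Gm15500 was at 0.20 ± 0.073 (edgeR adjusted p = 0.15) where Rpl5 was at 0.21, and Rpsa-ps10 was at -0.13 ± 0.062 (edgeR adjusted p = 0.24) where Rpsa was at -0.14. Over the 69 genes with at least 100 reads in pseudogene rows of their own, 58 had the same sign in both, with a Spearman's rho of 0.74. These pairs share libraries and may share transcripts, so they are no independent measurement. Rpl10a, at -0.20, stood apart from its pseudogene rows at 0.057, and summed with them it was at -0.0052.

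**Figure D5:**
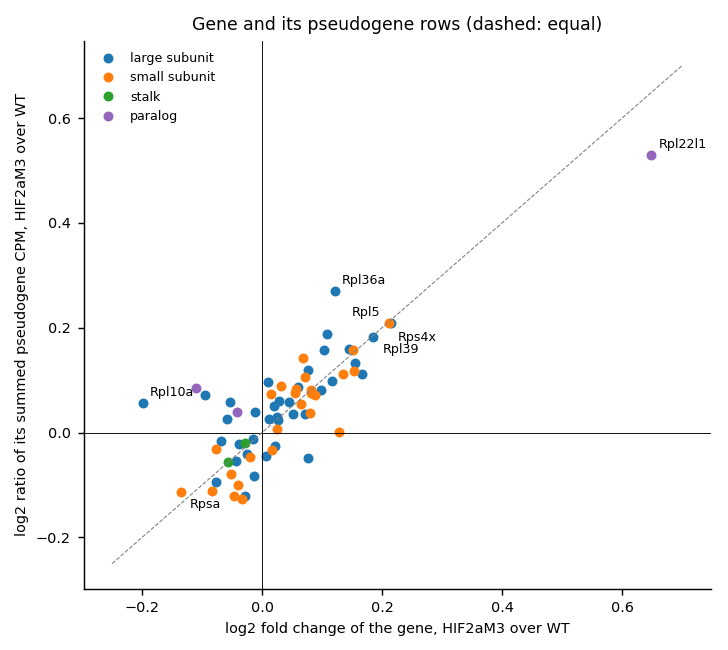
Log2 ratio of the summed pseudogene CPM (y axis) against the log2 fold change of the gene (x axis), both HIF2aM3 over WT, 1 point for each of 69 genes, with a dashed line of equality. Rpl22l1 lies at 0.65 and 0.53, Rpl5, Rps4x and Rpl39 lie near the line, and Rpl10a lies off it.

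Other genes of ribosome production and translation came from lists of known function. Of the mitochondrial ribosomal proteins, which translate the mitochondrial genome, 10 of 77 fell, 0 rose and 67 did not pass, beside 3.75% of all genes called in either direction. Their median log2 fold change was -0.14 with 70 negative and 7 positive, where 50.9% of all genes tested were positive. This median was -0.06 to -0.17 over all alternatives, scalings included. Mrps34, of the small mitochondrial subunit, fell from 66.9 ± 0.308 to 52.9 ± 2.52 CPM (log2 fold change -0.34 ± 0.052, edgeR adjusted p = 0.026). Mrpl53, of the large mitochondrial subunit, fell from 26.0 ± 0.844 to 20.7 ± 0.479 CPM (-0.33 ± 0.054, edgeR adjusted p = 0.028). Mrps12 fell from 24.8 ± 0.754 to 19.0 ± 1.05 CPM and Mrpl34 from 49.9 ± 1.65 to 36.9 ± 3.88 CPM (edgeR adjusted p = 0.028 and 0.035). Leaving out any animal but WT 2 left 0 of the 77 called, and without WT 2 the count was 14. A test of the difference between the cytosolic and mitochondrial genes was not run.

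Few genes of the other lists passed, and with 3.75% of all genes called, nothing particular to these lists is read from the counts. Of 21 translation factors with a TOP mRNA, 1 rose, 0 fell and 20 did not pass, with a median of 0.046. The gene that rose was Eif4b, a cofactor of the eIF4A helicase, from 192 ± 8.24 to 235 ± 3.64 CPM (log2 fold change 0.29 ± 0.056, edgeR adjusted p = 0.040), a call that ended when any animal but WT 2 was left out. Of 27 other initiation and elongation factors, 0 passed, with Eif3a nearest at 0.27 ± 0.061 (edgeR adjusted p = 0.055). Of 40 ribosome assembly factors 1 fell, Bysl, which acts in small-subunit assembly, from 31.2 ± 0.896 to 25.9 ± 1.15 CPM (-0.26 ± 0.056, edgeR adjusted p = 0.049), and the list's median was -0.080. The call of Bysl ended when any animal but WT 2, or kidney 2 of 17-51 alone, was left out, and with library size alone, thinned animals or length and GC trends removed. Among 14 genes of RNA polymerase I, 0 passed, and Taf1c was nearest at -0.44 ± 0.11 (edgeR adjusted p = 0.068). Of 25 regulators of ribosomal protein synthesis 2 rose. Rictor, of the mTORC2 complex, went from 39.5 ± 1.54 to 47.2 ± 1.34 CPM (0.26 ± 0.052, edgeR adjusted p = 0.043), and was at 0.084 with length and GC trends removed. Myc, a transcription factor that promotes ribosome production, went from 4.496 ± 0.679 to 8.92 ± 2.38 CPM (0.97 ± 0.20, edgeR adjusted p = 0.049). Leaving out any 1 animal ended the calls of both Rictor and Myc. The 6 snoRNA host genes measured had 0 called, Zfas1 having the smallest p (0.15 ± 0.096, edgeR adjusted p = 0.36). These lists were chosen with results of these samples known.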

How the data were processed

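RNA of 12 libraries (both kidneys of 3 WT and 3 HIF2aM3 mice) was prepared with an Illumina TruSeq RNA kit and read against build mm9, per the labels' protocols and the submitters' processing notes. Aligner, counter, annotation release and strand setting are not stated in the sources used here. The authors deposited raw read counts per gene, and RPKM values made, as the values show, after adding about 1 read to each count. The authors' log2 fold change and q-value are used only where named. Symbols, transcripts and overlaps came from GENCODE M21 (24630 IDs matched), and promoters from RefSeq GRCm38.p6. Because of another build, no M21 coordinates are given.

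For each animal the counts of its kidneys were added and the sums tested with edgeR 4.0.16 in R 4.3.3 (filterByExpr, TMM, robust quasi-likelihood, two-sided, Benjamini-Hochberg over 19564 genes, threshold 0.05). CPM are TMM-scaled, SE is |log2 fold change| divided by sqrt(F), and means ± SD are over 3 animals. The kidney fit used the animal as a block, since the labels tie both kidneys to an animal. DESeq2 1.42.0, limma 3.58.1 and other settings were alternatives. No 2 libraries agreed within sampling noise (lowest chi-square per degree of freedom 1.77). Of the 82 genes, 38 overlap another annotated gene, among them Rpl5, Rpl30, Rpl22l1, Rpl10a, Rpsa, Rpl3, Rpl4 and Rplp2, so their reads are uncertain without strand.

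Members and lists were chosen with earlier results of these data known. Named genes are every member past the threshold, the 5 highest and 5 lowest by RPKM, the 5 largest log2 fold changes in each direction, the stalk genes and Rpsa, paralogs with their parents, and, of each other list, up to 4 genes past the threshold or the 1 with the smallest p.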

Additional observations from a re-analysis of the deposited data

Results flagged for a closer look

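In 54 sets of 6 libraries, 5 had 1 library far from the others, where chance gives about 1 in 20. Rpl39 was at 16.7 CPM in kidney 2 of WT 3, against 14.5 to 15.2 CPM in the other WT libraries. Rpl22l1 was at 1.66 CPM in kidney 2 of 17-51, the shallowest library, against 0.877 to 1.14 CPM, and without that library its log2 fold change was 0.61. Kidney 1 of 17-56 had Rps19bp1 at 14.6 CPM, against 12.69 to 13.03 CPM in the other HIF2aM3 libraries. Rps27l was at 43.2 CPM in kidney 1 of 17-53, against 40.3 to 41.3 CPM. Rpsa was at 74.9 CPM in kidney 2 of 17-56, against 70.1 to 71.7 CPM.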

How the results depend on the processing

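Of 24 other settings of the genotype fit, 4 called any of the 82 genes: DESeq2 (2 higher, 1 lower), the 12 libraries taken as replicates, which treats kidneys of an animal as independent (12 higher, 3 lower), the fit without WT 2 (1 higher) and the sums with pseudogene rows, chosen after seeing the data (1 higher). Over all genes these 4 settings called 2074, 4829, 1549 and 732 in the same order, against 733 in the main fit. Leaving out each animal gave 0 to 1 calls higher and 0 lower. The median log2 fold change ran from -0.013 (without WT 3) to 0.066 (length and GC trends removed). It was -0.0013 without 17-51 and -0.027 over the 15 genes with at least 50% unique windows, a choice made after seeing the data. These 15 include Rpl3l, Rpl7l1, Rps27l and Rps19bp1, all negative, and the 11 canonical genes among them had a median of -0.0039. Kidney calls stayed at 0 in every setting tried. Of 622 values of the 26 named ribosomal protein genes under these settings 0 changed sign past the threshold and 18 newly passed it.

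The other lists had 14 calls, 3 with kidney 2 only, 75 with 12 libraries, 7 without kidney 2 of 17-51 and of 17-56, 8 with animals thinned to the shallowest total, 3 with length and GC trends removed, 30 with DESeq2 and 0 in each of the 4 limma fits on RPKM. Leaving out each animal gave 0 to 17. Over all genes the main fit called 733. In the order above, the other settings called 337, 4829, 597, 631, 501 and 2074 genes, and the limma fits 6 to 140. The fits that left out 1 animal called 11 to 1549 of all genes. The causes were not tested. No paired analysis was possible because WT and HIF2aM3 animals share no replicate number. The shallow library limits low genes such as Rpl22l1 most. P-values of the main genotype fit measure the spread between 3 animals of each genotype. Those of the kidney fits with the animal as a block rest on differences between kidneys within animals.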
